A study of Mus musculus with 8 samples.

Results

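The 10 genes described here handle zinc in pancreatic islets. They are the metallothioneins Mt1 and Mt2, the zinc sensor Mtf1, the ZnT transporters Slc30a1, Slc30a5, Slc30a7 and Slc30a8, and the ZIP transporters Slc39a6, Slc39a10 and Slc39a14. They were taken as a named list from the 20715 genes of the deposited tables, and all 10 had a value in each of the 8 libraries. Whole islet RNA had been sequenced from C57BL/6 mice aged 12 weeks, with 4 libraries of genotype ob/+ and 4 of genotype ob/ob. The ob allele disrupts Lep, the gene of the satiety hormone leptin. The ob/+ group carries 1 copy of it, so the comparison is between heterozygous and homozygous carriers, with no wild-type islets. Islets had been hand-picked after collagenase digestion and a density gradient, so each library pools endocrine cells with the vessel, stromal, immune and exocrine cells that came along. Whether each library is a separate mouse is not stated in the labels, and the p-values below measure the spread between these libraries.

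Zinc is packed with insulin into the secretory granules of beta cells, where it holds insulin in hexamers, and ZnT8, the protein of Slc30a8, is the transporter known for loading those granules. ZnT proteins move zinc out of the cytosol, either across the cell membrane or into organelles, and ZIP proteins move it into the cytosol. Metallothioneins are small cysteine-rich proteins that bind and buffer cytosolic zinc, and Mtf1 is the transcription factor that senses zinc and activates the metallothionein genes and Slc30a1 through metal response elements.

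Values were taken to be FPKM, fragments per kilobase of transcript scaled to the library total. The unit was inferred from the values, and each comparison of levels between genes rests on that division by length, which was not checked. Summed FPKM ran from 820968 to 880570 in the ob/+ libraries and from 920734 to 1004230 in the ob/ob libraries, without overlap. Between 11363 and 11883 genes reached 1 FPKM per library, and absolute depth is unknown. Levels are given as mean ± SD over the 4 libraries of a group (n = 4) and fold changes with their standard error (SE). A list of 10 beta cell markers took 45.1% to 58.3% of summed FPKM in ob/+ and 61.9% to 70.7% in ob/ob. Ins1 and Ins2 made up most of this share, and none of the 10 was at 0 throughout. The library ob/+ 4 stood apart: 20 acinar enzyme genes took 24.3% of its summed FPKM, against 7.19% to 13.1% in the other ob/+ libraries and 3.11% to 10.9% in ob/ob. Of the ob/ob libraries, ob/ob 1 had the largest acinar share. In bulk tissue, fewer cells of a type and less RNA per cell cannot be told apart.

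In ob/ob islets 4 of the 10 genes fell and none rose. Mt1 and Mt2 fell by most, to 22.9% and 21.3% of their ob/+ means, and the exporters Slc30a8 and Slc30a1 fell to 65.8% and 58.5%. The test was limma on log2(FPKM + 1) with Benjamini-Hochberg adjustment over 11747 genes and a threshold of 0.05, and all 10 genes met its filter of 1 FPKM in at least 4 libraries. Of all tested genes it called 18.8%, with 10.6% lower and 8.21% higher in ob/ob. The groups of 4 libraries did not overlap for the same 4 zinc genes, where they did not overlap for 20.5% of all tested genes. The median log2 fold change was -0.21 over the 10 genes and -0.07 over all tested genes.

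**Figure D1:**
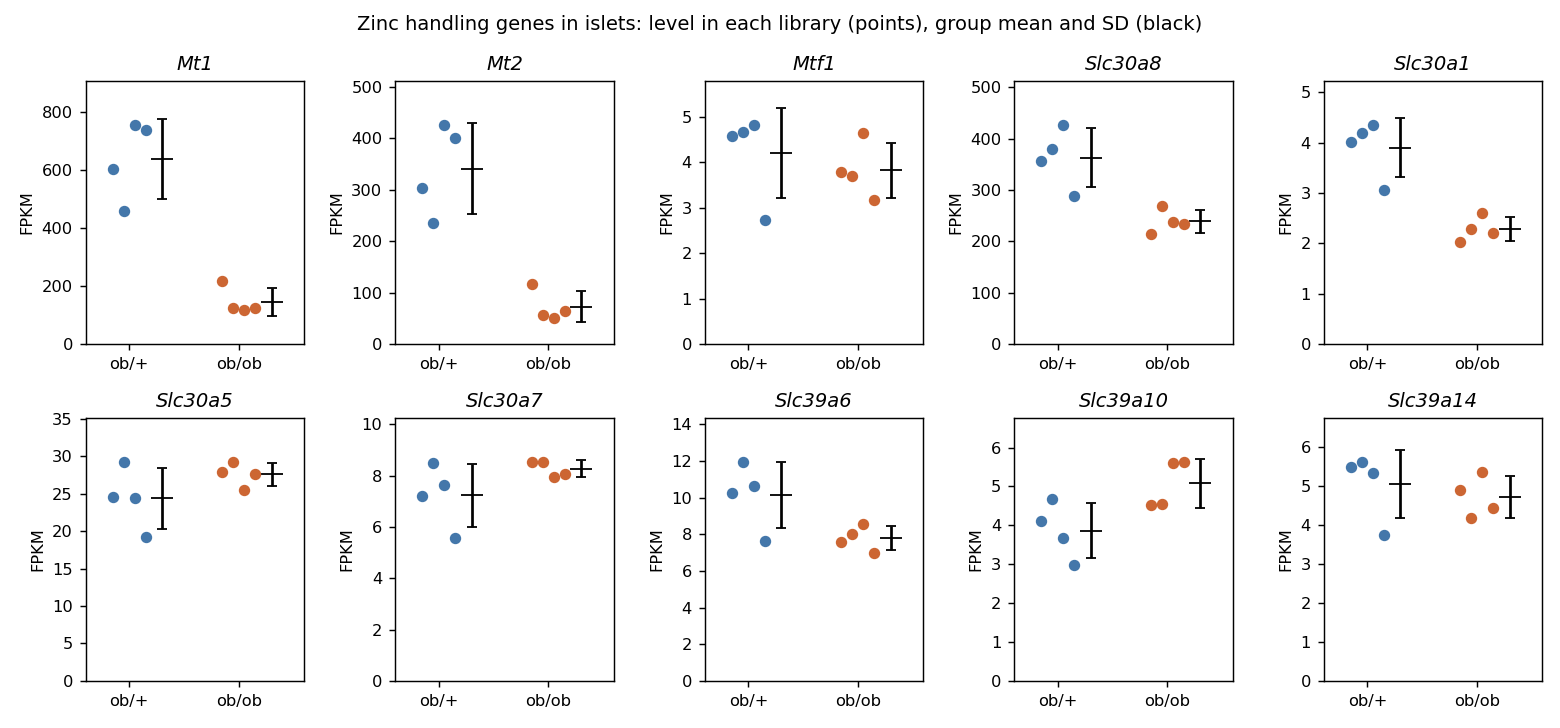
FPKM of the 10 zinc genes in each library (points, replicates 1 to 4 from left to right), with the group mean and SD (n = 4) in black; each panel has its own axis from 0. The ob/ob points lie below all ob/+ points for Mt1, Mt2, Slc30a8 and Slc30a1, and the groups overlap for the other 6 genes.

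Mt1 lies on chromosome 8 of GRCm38 from 94179082 to 94180327 on the plus strand, and Mt2 just before it from 94172664 to 94173568, with 5513 bases between them. Their coding sequences are 183 bases each and identical at 79.2% of positions, and each encodes 61 residues of which 20 are cysteines. How reads shared by such close copies were divided is not given in the sources used here, so the split between their values is uncertain. An antisense RNA, Gm45774, overlaps Mt2 on the other strand, and without stated strand use its reads and those of Mt2 cannot be told apart.

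The promoter windows of both genes are shown because the genes moved together, with the window of Slc30a1, which also fell, and that of Mt3, a neighbouring metallothionein gene that rose. Each is the RefSeq window of GRCm38.p6 from 250 bases before to 50 bases after the annotated start, on the plus strand. Capitals mark each match to the metal response element core, searched as TGCACNC and TGCGCNC on both strands.
Mt1, chr8:94178839-94179138: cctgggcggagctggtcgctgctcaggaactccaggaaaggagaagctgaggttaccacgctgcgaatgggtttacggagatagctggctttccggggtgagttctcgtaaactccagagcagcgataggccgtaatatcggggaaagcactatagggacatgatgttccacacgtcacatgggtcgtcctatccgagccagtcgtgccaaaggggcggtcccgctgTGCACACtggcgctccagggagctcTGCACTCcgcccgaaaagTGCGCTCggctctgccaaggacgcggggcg
Mt2, chr8:94172368-94172667: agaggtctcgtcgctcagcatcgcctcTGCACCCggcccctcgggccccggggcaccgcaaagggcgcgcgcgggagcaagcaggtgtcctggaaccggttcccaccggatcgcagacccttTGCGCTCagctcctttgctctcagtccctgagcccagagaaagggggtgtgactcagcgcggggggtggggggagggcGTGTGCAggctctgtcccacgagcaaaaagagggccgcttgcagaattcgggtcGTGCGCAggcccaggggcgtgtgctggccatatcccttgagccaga
Slc30a1, chr1:191906531-191906830: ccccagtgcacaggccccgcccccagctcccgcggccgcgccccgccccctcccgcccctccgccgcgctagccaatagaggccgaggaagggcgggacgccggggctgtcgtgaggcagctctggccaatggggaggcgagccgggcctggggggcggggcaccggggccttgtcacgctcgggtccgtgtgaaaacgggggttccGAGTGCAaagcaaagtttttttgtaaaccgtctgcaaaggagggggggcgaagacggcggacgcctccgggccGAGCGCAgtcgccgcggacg
Mt3, chr8:94152357-94152656: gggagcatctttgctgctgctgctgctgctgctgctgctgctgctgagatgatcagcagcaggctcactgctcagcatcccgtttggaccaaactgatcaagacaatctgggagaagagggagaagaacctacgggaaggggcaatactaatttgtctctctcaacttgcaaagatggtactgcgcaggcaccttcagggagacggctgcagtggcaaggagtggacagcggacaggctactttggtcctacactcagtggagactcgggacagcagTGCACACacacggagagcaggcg

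The window of Mt1 held 3 matches, that of Mt2 held 4, that of Slc30a1 held 2 and that of Mt3 held 1. Of 32851 windows of the same length 25.7% held at least 1 match, 7.11% at least 2, 1.97% at least 3 and 0.517% at least 4. These windows are rich in G and C (60.7% for Mt1, 67.7% for Mt2 and 73.0% for Slc30a1, against a median of 52.7%). Among the 9690 windows with 60% or more, 16.7% held at least 2 matches, 5.04% at least 3 and 1.31% at least 4. In Mt1 the matches begin 23 bases before the start and 3 and 21 bases into the transcript. The window of Mt2 also holds the antioxidant response element core, searched as TGACNNNGC on both strands, at TGACTCAGC, and that of Slc30a1 holds it on the minus strand; 12.4% of all windows do. Of the 10 zinc genes 7 are in the RefSeq table. Mtf1, Slc30a7 and both windows of Slc39a10 held no match to either core, and Slc30a5 held 1 to each. Matches did not go only with genes that fell: Slc30a4, a ZnT gene that did not pass (adjusted p = 0.784), and Slc30a10, which was below the filter, also held 3 matches to the metal response element core. A match describes letters and does not show binding.

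The annotated starts of Mt1 and Mt2 lie well before the coding sequence. In the 300 bases directly before the start codon, joined from the RefSeq window and the first GENCODE exon, both genes held 5 matches to the metal response element core. Of all promoter windows 0.143% held at least as many, and of those with 60% or more G and C 0.351%, although those windows are placed differently. The 2 stretches are 62% and 64.3% G and C. In Mt1 the metal response element matches began, in order from the 5′ end, at 245, 220, 202, 138 and 124 bases before the start codon. The antioxidant response element core had 1 match in the stretch of Mt1, beginning 170 bases before the start codon, and none in that of Mt2.

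**Figure D2:**
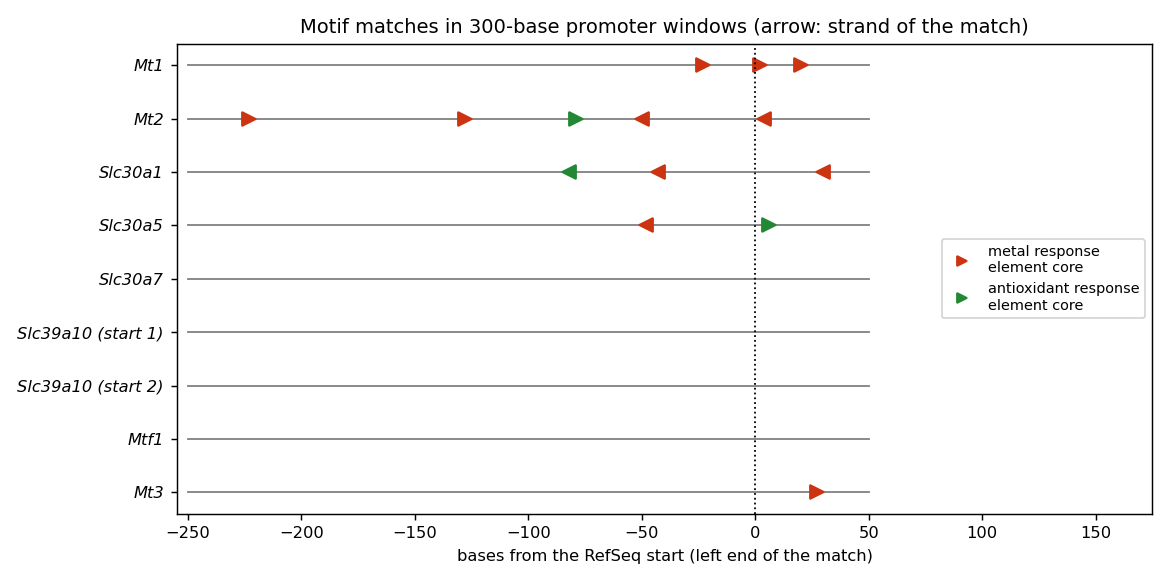
Positions of motif matches in the 300-base RefSeq promoter windows of the 7 zinc genes in the table and of Mt3, as bases from the annotated start (dotted line); arrows point along the strand of the match. Matches to the metal response element core number 3 in Mt1, 4 in Mt2, 2 in Slc30a1, and 1 each in Slc30a5 and Mt3.

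Mt1 stood at 602, 457, 754 and 737 FPKM in ob/+ 1 to 4 and at 218, 124, 117 and 126 FPKM in ob/ob 1 to 4. Every ob/ob library was below every ob/+ library, and ob/ob 1 was the highest of its group. The means were 637 ± 138 and 146 ± 48.0 FPKM, 4.36-fold lower in ob/ob, with a log2 fold change of -2.14 ± 0.26 (SE, adjusted p = 0.00177). Among all genes of a library Mt1 ranked between 44 and 56 in ob/+ and between 170 and 340 in ob/ob.

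Mt2 stood at 304, 235, 426 and 401 FPKM in ob/+ 1 to 4 and at 118, 57.2, 51.0 and 65.1 FPKM in ob/ob 1 to 4. The order of the libraries within ob/+ was that of Mt1, and ob/ob 1 was again the highest of its group. Mt2 was 4.70-fold lower in ob/ob, with a log2 fold change of -2.26 ± 0.32 (SE, adjusted p = 0.0041). Together the 2 genes made up 0.115% ± 0.0277 of summed FPKM in ob/+ and 0.0227% ± 0.00845 in ob/ob.

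The ratio of Mt1 to Mt2 within a library, which the library scaling cannot move, was 1.88 ± 0.0968 in ob/+ and 2.06 ± 0.202 in ob/ob. The difference of 0.13 in the log2 ratio did not pass an exact two-sided permutation test (p = 0.2, and 0.2 when adjusted for 2 ratios; the smallest p this design can reach is 0.0286). Both calls held in all 19 alternatives, with log2 fold changes of -2.43 to -1.79 for Mt1 and -2.55 to -1.83 for Mt2.

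Acinar RNA also varied between these libraries. The acinar share was 10.1%, 7.19%, 13.1% and 24.3% in ob/+ 1 to 4 and 10.9%, 3.11%, 6.07% and 6.15% in ob/ob 1 to 4. The ob/+ libraries with the larger shares, 3 and 4, had the most Mt1, and ob/ob 1 had the largest share and the most Mt1 of its group. Of the 20 acinar genes none passed the test, and none was at 0 throughout. Over the 8 libraries, deviations of Mt1 and of Mt2 from their group means went with those of the acinar level (r = 0.78 for each). Those of every other zinc gene on the list ran against it, from r = -0.77 for Slc30a8 to -0.41 for Slc39a14, with -0.70 for Slc30a1. At like shares, ob/+ 1 had 602 FPKM of Mt1 and ob/ob 1 had 218. With the acinar level as a covariate the log2 fold changes were -1.79 ± 0.18 for Mt1 (SE, adjusted p = 0.000162) and -1.83 ± 0.25 for Mt2 (adjusted p = 0.0035). Without both ob/+ 4 and ob/ob 1 they were -2.27 and -2.42. The part of acinar RNA in the fall of Mt1 and Mt2 was not tested.

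**Figure D3:**
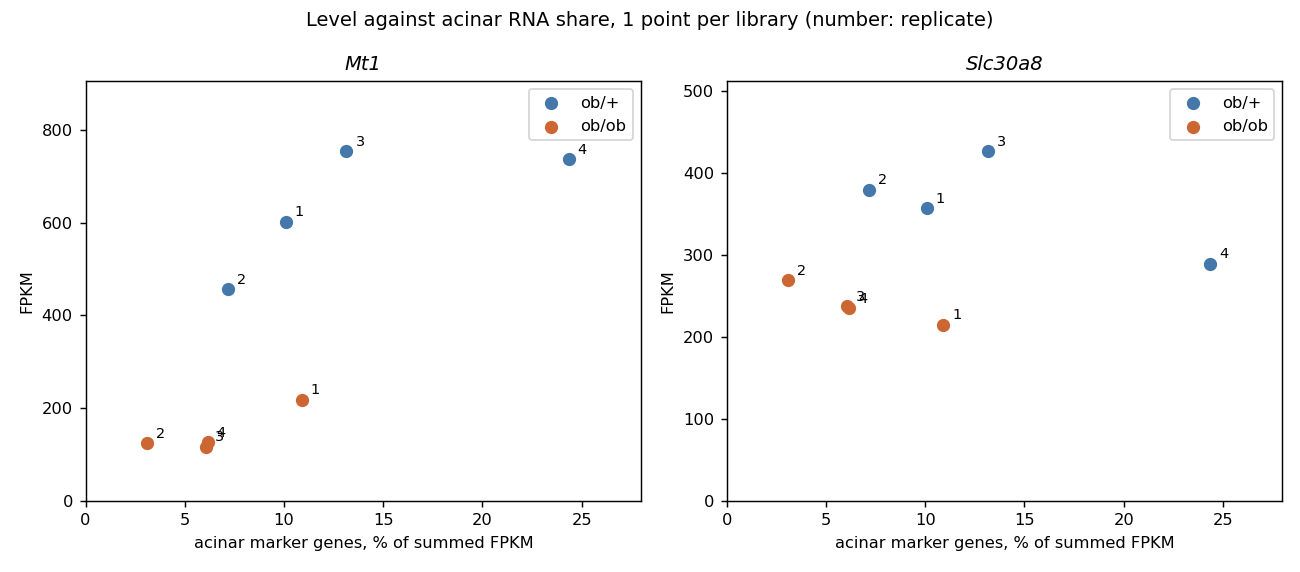
FPKM of Mt1 (left) and Slc30a8 (right) against the share of summed FPKM from 20 acinar marker genes, with 1 point per library and its replicate number. Mt1 in ob/ob 1, at an acinar share of 10.9%, lies at 218 FPKM and ob/+ 1, at 10.1%, at 602; Slc30a8 in ob/+ 4, at 24.3%, lies at 289 FPKM, the lowest of its group.

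Mtf1 (chromosome 4, 124802104 to 124849800, plus strand) did not pass the test. It stood at 4.57, 4.67, 4.82 and 2.72 FPKM in ob/+ 1 to 4 and at 3.79, 3.69, 4.64 and 3.16 FPKM in ob/ob 1 to 4, and the groups overlapped. The log2 fold change was -0.09 ± 0.14 (SE, adjusted p = 0.697), and it turned to 0.00029 when scaling skipped the 10 most abundant genes. Scaled to non-acinar FPKM it was -0.33 and passed as lower (adjusted p = 0.0433), where the median of all tested genes was -0.32. A protein-coding gene on the other strand, 1110065P20Rik, overlaps it and rose (log2 fold change 0.40 ± 0.12 SE, adjusted p = 0.0168), so Mtf1 is uncertain if reads were counted without strand.

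Slc30a8 (chromosome 15, 52295553 to 52335798, plus strand) was the most abundant zinc transporter in each library. It stood at 357, 380, 427 and 289 FPKM in ob/+ 1 to 4 and at 215, 269, 237 and 235 FPKM in ob/ob 1 to 4. The groups did not overlap, though the lowest ob/+ library, ob/+ 4, was close to the highest ob/ob library. The means were 363 ± 57.2 and 239 ± 22.4 FPKM, with a log2 fold change of -0.59 ± 0.10 (SE, adjusted p = 0.000246), and the call held in all 19 alternatives. Over these the log2 fold change ran from -0.47, when scaling skipped the 10 most abundant genes, to -0.89, scaled to non-acinar FPKM. On leaving out 1 library it ran from -0.51 without ob/+ 3 to -0.70 without ob/+ 4.

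Ins2 rose (log2 fold change 0.56 ± 0.09 SE, adjusted p = 5.4e-05), while Ins1 did not pass and its groups overlapped (0.25 ± 0.13 SE, adjusted p = 0.216). Summed Ins1 and Ins2 were at 416206 ± 43786 FPKM in ob/+ and 586835 ± 57302 FPKM in ob/ob. For every 1000 FPKM of insulin there were 0.818, 0.813, 1.09 and 0.783 FPKM of Slc30a8 in ob/+ 1 to 4 and 0.396, 0.408, 0.44 and 0.387 in ob/ob 1 to 4. No ob/ob library reached the lowest ob/+ library. The ratio was 2.13-fold lower in ob/ob, a difference of -1.09 on the log2 scale (p = 0.0286 in the exact permutation test, its smallest possible value, and 0.0571 when adjusted for 2 ratios, which misses the threshold).

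Other markers of the cells that express Slc30a8 also differed. Of 10 beta cell markers 2 rose (Ins2 and Iapp) and 3 fell (Mafa, Slc2a2 and Ucn3). Of 8 alpha cell markers 5 were lower and 2 higher. Over all tested genes 8.21% rose and 10.6% fell. The summed level of the alpha cell markers ran from 25355 to 31874 FPKM in ob/+ and from 8997 to 12440 FPKM in ob/ob. Most of this sum was Gcg, at a mean of 26864.5 FPKM in ob/+ and 8424.2 FPKM in ob/ob. The 2 alpha cell markers that were higher were Ttr and Gc. None of the beta or alpha cell markers was at 0 throughout, and their part in the fall of Slc30a8 was not tested.

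Slc30a1 (chromosome 1, 191906767 to 191913247, plus strand), which encodes the exporter at the cell membrane, was among the least abundant of the 10 genes. It stood at 4.02, 4.18, 4.35 and 3.05 FPKM in ob/+ 1 to 4 and at 2.03, 2.29, 2.6 and 2.21 FPKM in ob/ob 1 to 4. The groups did not overlap, and ob/+ 4 was the nearest to ob/ob. The log2 fold change was -0.57 ± 0.13 (SE, adjusted p = 0.00175) and the call held in all 19 alternatives. An antisense RNA, 1700034H15Rik, overlaps the gene, with the same limit as for Mt2.

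Slc30a5 and Slc30a7 encode ZnT5 and ZnT7, which load zinc into the early secretory pathway, and neither passed the test. Slc30a5 (chromosome 13, 100802648 to 100833427, minus strand) ranged from 19.2 to 29.3 FPKM in ob/+ and from 25.5 to 29.2 FPKM in ob/ob. Its log2 fold change was 0.18 ± 0.11 (SE, adjusted p = 0.286). Slc30a7 (chromosome 3, 115938973 to 116007406, minus strand) ranged from 5.59 to 8.51 FPKM in ob/+ and from 7.93 to 8.55 FPKM in ob/ob. Its log2 fold change was 0.18 ± 0.12 (SE, adjusted p = 0.329). For both genes the lowest value was that of ob/+ 4. Scaled to non-acinar FPKM, the 2 values turned to -0.10 and -0.08. With median centring both were 0.25 and passed as higher (adjusted p = 0.0369 and 0.0225), as they did with upper-quartile scaling (0.0396 and 0.0334).

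None of the 3 ZIP genes on the list passed the test. Slc39a6 (chromosome 18, 24579881 to 24603817, minus strand), which encodes the importer ZIP6, stood at 10.3, 12.0, 10.6 and 7.64 FPKM in ob/+ 1 to 4 and at 7.57, 8.02, 8.55 and 6.98 FPKM in ob/ob 1 to 4. Only ob/+ 4 lay within the ob/ob range, and the log2 fold change was -0.33 ± 0.13 (SE, adjusted p = 0.0768). Elp2 overlaps Slc39a6 on the other strand at 19.9 ± 0.543 FPKM in ob/ob and 22.7 ± 2.64 in ob/+ (adjusted p = 0.284), so Slc39a6 is uncertain if reads were counted without strand. Without ob/+ 4 the log2 fold change of Slc39a6 was -0.44 and passed as lower (adjusted p = 0.00102), as it did in 7 of 19 alternatives.

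Slc39a10 (chromosome 1, 46807544 to 46892852, minus strand), which encodes ZIP10, stood at 4.12, 4.67, 3.68 and 2.99 FPKM in ob/+ 1 to 4 and at 4.52, 4.55, 5.6 and 5.64 FPKM in ob/ob 1 to 4. The groups overlapped only through ob/+ 2. The log2 fold change was 0.33 ± 0.13 (SE, adjusted p = 0.0834), and without ob/+ 2 it was 0.40 and passed as higher (adjusted p = 0.0489). It passed in 4 of 19 alternatives, and it was 0.09 scaled to non-acinar FPKM (adjusted p = 0.516) and 0.20 with the acinar covariate (adjusted p = 0.298). Slc39a14 (chromosome 14, 70303469 to 70351425, minus strand), which encodes ZIP14, an importer of zinc, iron and manganese, ranged from 3.74 to 5.63 FPKM in ob/+ and from 4.17 to 5.37 FPKM in ob/ob. Its log2 fold change was -0.07 ± 0.13 (SE, adjusted p = 0.737) and turned to 0.02 when scaling skipped the 10 most abundant genes. Scaled to non-acinar FPKM it was -0.32 and passed as lower (adjusted p = 0.03), where the median of all tested genes was also -0.32.

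The order of the levels differed between the groups at the top. In ob/+ Mt1 was above Slc30a8 in all 4 libraries, Slc30a8 and Mt2 overlapped, and Slc30a5 was far below these 3. In ob/ob Slc30a8 was above Mt1 in 3 of 4 libraries, and Mt2 came next. Below Slc30a5 the ranges of neighbouring genes overlapped in ob/+ down to Slc39a10. Slc30a1 was ninth of 10 in ob/+ and last in ob/ob, where its range lay below that of Mtf1. Slc30a8 made up 83.4% ± 1.19 of the summed level of the ZnT genes in ob/+ and 76.7% ± 1.59 in ob/ob.

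With the deposited scaling and all libraries, the other genes of zinc transport and storage changed in the opposite direction where they passed the test. Of 12 further genes tested, 4 rose and none fell, so that over the whole list of 30 genes 22 were tested, of which 4 rose and 4 fell, where 8.21% of all tested genes rose and 10.6% fell. All 3 of the ZIP genes among them that passed were higher in ob/ob, and 7 were tested. Scaled to non-acinar FPKM, the whole list had 2 genes higher and 11 lower, where 58.9% of all tested genes passed as lower. Slc39a11, which encodes ZIP11, stood at 5.56, 5.36, 4.17 and 6.56 FPKM in ob/+ 1 to 4 and at 15.3, 12.5, 16.7 and 17.8 FPKM in ob/ob 1 to 4. It rose 2.88-fold without overlap, with a log2 fold change of 1.37 ± 0.13 (SE, adjusted p = 3.39e-08), in all 19 alternatives. Sstr2, which overlaps Slc39a11 on the other strand, fell (log2 fold change -1.19 ± 0.13 SE, adjusted p = 2.24e-07). Cog1, on that strand too, was at 32.0 ± 2.69 FPKM in ob/ob and 37.5 ± 5.48 in ob/+, above Slc39a11 itself, and did not pass (adjusted p = 0.19).

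Slc39a9, which encodes ZIP9 of the Golgi, was at 25.8 ± 0.645 FPKM in ob/ob and 18.2 ± 3.22 in ob/+ (log2 fold change 0.50 ± 0.12 SE, adjusted p = 0.00374). Its call ended under scaling to non-acinar FPKM (adjusted p = 0.0669). Erh overlaps Slc39a9 on the other strand at 31.4 ± 1.36 FPKM in ob/ob and 37.1 ± 2.43 in ob/+ (adjusted p = 0.0977). Slc39a13, which encodes ZIP13, was at 20.1 ± 1.26 against 15.9 ± 2.23 FPKM (log2 fold change 0.33 ± 0.11 SE, adjusted p = 0.0487). It passed in 7 of 19 alternatives, and leaving out ob/+ 1, ob/+ 3 or any 1 of the ob/ob libraries ended its call (adjusted p = 0.0561 to 0.123). Psmc3 overlaps Slc39a13 on the other strand at 21.6 ± 1.42 FPKM in ob/ob and 23.3 ± 1.32 in ob/+ (adjusted p = 0.53). Slc39a7, the ZIP7 importer of the endoplasmic reticulum, was the most abundant ZIP gene at 85.6 ± 8.07 against 79.4 ± 6.44 FPKM and did not pass (adjusted p = 0.489).

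Slc39a5 was at 5.08 ± 2.48 FPKM in ob/ob and 11.6 ± 5.96 in ob/+ (adjusted p = 0.169). None of the 3 tested ZnT genes outside the list (Slc30a4, Slc30a6 and Slc30a9) passed, with log2 fold changes of -0.19 to 0.09, and Slc30a2, Slc30a3 and Slc30a10 stayed below the filter. The vesicle zinc transporter gene Tmem163 was at 29.7 ± 3.003 against 34.0 ± 4.60 FPKM (adjusted p = 0.268).

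**Figure D4:**
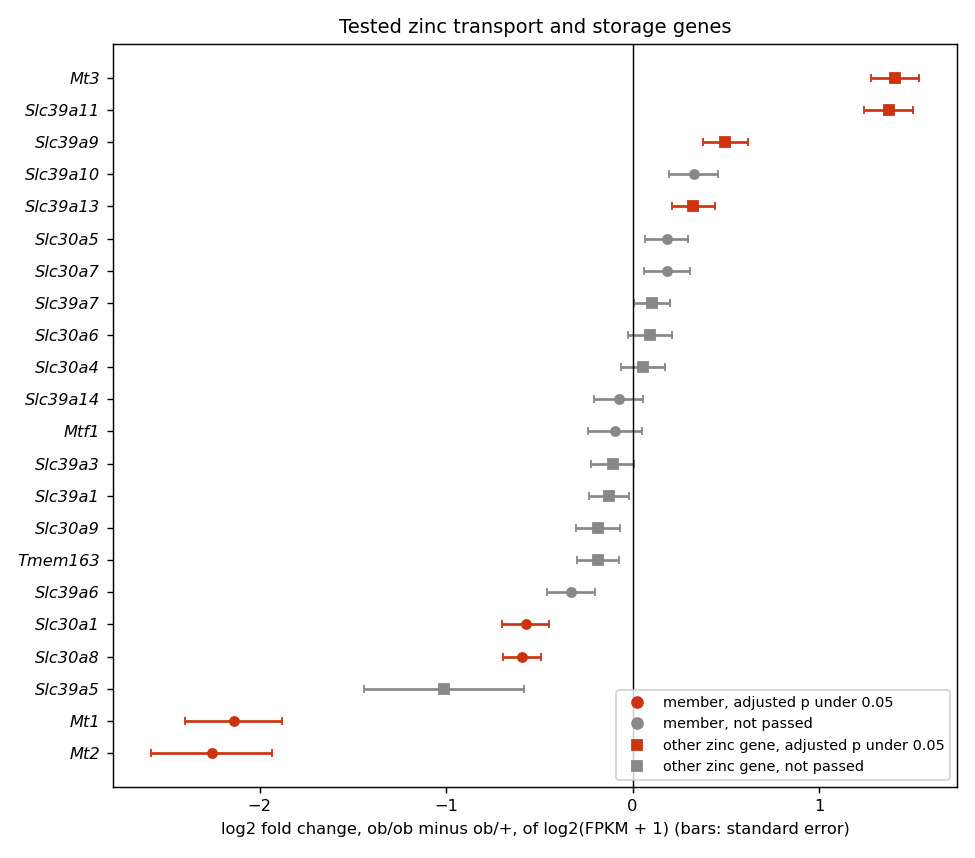
Log2 fold changes (ob/ob minus ob/+, on log2(FPKM + 1)) of the 22 tested zinc transport and storage genes, with bars of 1 standard error; red marks an adjusted p under 0.05. Mt2 (-2.26) and Mt1 (-2.14) lie at one end and Mt3 (1.41) and Slc39a11 (1.37) at the other.

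Mt3, the metallothionein known from brain, lies on the same chromosome before Mt2 (94152607 to 94154146, plus strand) and rose. It stood at 4.18, 3.77, 2.72 and 3.48 FPKM in ob/+ 1 to 4 and at 9.48, 10.6, 12.0 and 12.0 FPKM in ob/ob 1 to 4. The groups did not overlap, the ratio of means was 3.11, and the log2 fold change was 1.41 ± 0.13 (SE, adjusted p = 1.16e-08) and passed in all 19 alternatives. Its coding sequence matches that of Mt1 at 68.0% of aligned positions. Mt4, the fourth gene of the cluster, was listed without a value.

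The other neighbours of the cluster did not pass the test. Bbs2 was at 14.9 ± 1.15 FPKM in ob/ob and 15.5 ± 1.88 in ob/+ (adjusted p = 0.818). On the far side Nup93 was at 15.5 ± 1.25 against 15.05 ± 2.46 FPKM (adjusted p = 0.82) and Herpud1 at 135 ± 24.7 against 121 ± 21.8 FPKM (adjusted p = 0.546), while Slc12a3 stayed below the filter. The opposite calls of the cluster lay between flanking genes that did not pass.

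Library scaling shifted all genes together. The median over all genes moved by 0.10 when scaling skipped the 10 most abundant genes and by -0.25 when libraries were scaled to their non-acinar FPKM. Relative to that median, across 5 scalings, Mt1 stayed between -2.11 and -2.05, Mt2 between -2.23 and -2.16, Slc30a8 between -0.57 and -0.50 and Slc30a1 between -0.51 and -0.47. Slc30a5 lay between 0.22 and 0.27 above it and Slc39a10 between 0.40 and 0.41. The number of the 10 genes that passed was 8 with median centring and with upper-quartile scaling, 3 higher and 5 lower in each, where 29.2% and 29.5% of all genes passed. It was 7 with non-acinar scaling, all lower, where 58.9% of all genes passed as lower. With acinar genes included, summed FPKM was already higher in every ob/ob library than in any ob/+ library, and so was summed insulin. Means were 965670 against 853074 FPKM for all genes and 586835 against 416206 FPKM for insulin. The shift under non-acinar scaling therefore holds this difference in totals as well as the acinar share.

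**Figure D5:**
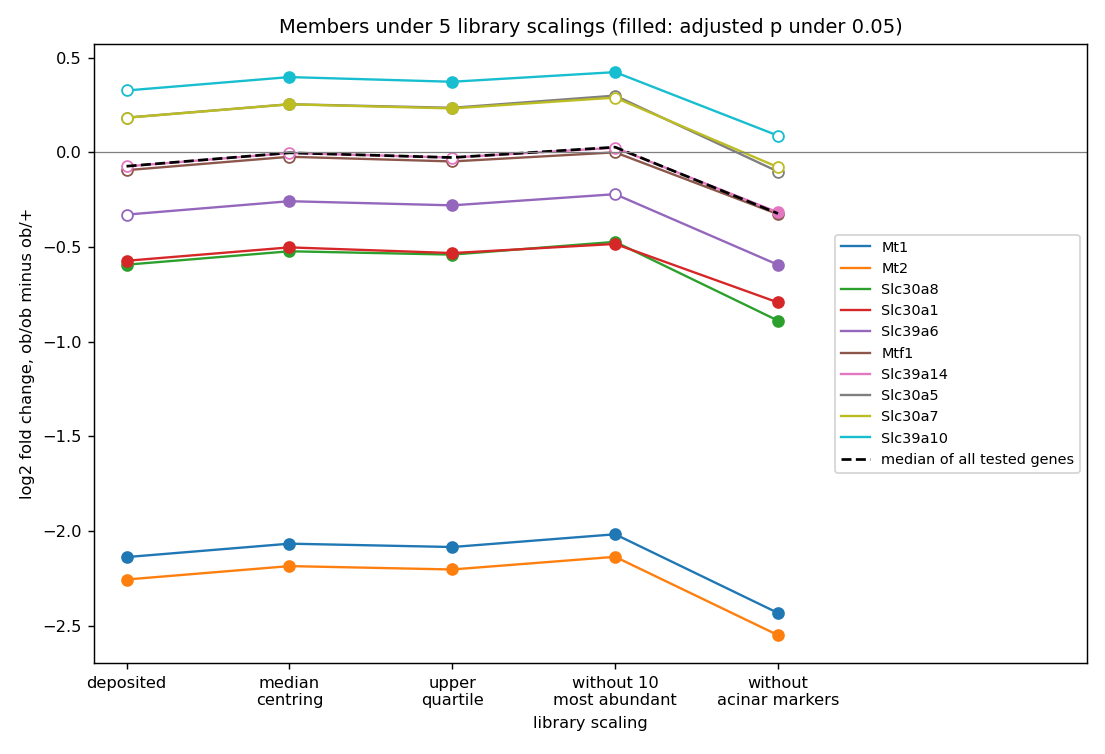
Log2 fold change (ob/ob minus ob/+) of the 10 zinc genes under 5 library scalings, with filled points for an adjusted p under 0.05 and a dashed line for the median of all tested genes. The lines run parallel to that median, which lies at -0.07 with the deposited scaling and -0.32 when scaled to non-acinar FPKM.

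Genes of other metals were measured beside them. Of 11 tested iron genes 4 fell and none rose, where 10.6% of all tested genes fell. The 4 were the ferritin subunits Ftl1 and Fth1, the transferrin receptor Tfrc and the haem oxygenase Hmox1. Ftl1, which has close copies in the mouse genome, was at 629 ± 55.1 FPKM in ob/ob and 1095 ± 76.1 in ob/+ (log2 fold change -0.80 ± 0.08 SE, adjusted p = 9.02e-08). Tfrc was at 4.52 ± 0.545 against 9.17 ± 0.582 FPKM (-0.88 ± 0.12 SE, adjusted p = 4.56e-06), and Fth1 at 281 ± 23.7 against 382 ± 33.2 FPKM (-0.44 ± 0.09 SE, adjusted p = 0.000679). The calls of Ftl1, Fth1 and Tfrc held in all 19 alternatives, and that of Hmox1 in 16, ending without ob/+ 2, without ob/ob 1 and when scaling skipped the 10 most abundant genes (adjusted p = 0.0582, 0.0892 and 0.139). Of 8 tested copper genes 1 rose, where 8.21% of all tested genes rose. It was Sod1, the copper and zinc superoxide dismutase, at 230 ± 12.6 against 187 ± 7.84 FPKM (0.30 ± 0.08 SE, adjusted p = 0.0118). Scaled to non-acinar FPKM, the value of Sod1 was 0.0042 and did not pass, and its call also ended with the acinar covariate.

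Metallothionein genes are also known to respond to glucocorticoids. Of 11 tested genes listed as glucocorticoid responsive, 2 rose (Ddit4 and Sgk1) and 1 fell (Pdk4), where 18.8% of all tested genes passed in either direction. The groups overlapped for Sgk1 (adjusted p = 0.0223), whose call held in 12 of 19 alternatives and was lost on leaving out ob/+ 2 or ob/ob 1, 2 or 4. The calls of Ddit4 and Pdk4 held in all 19. Fkbp5, a well known target of the glucocorticoid receptor, was at 22.4 ± 0.903 FPKM in ob/ob and 19.0 ± 4.05 in ob/+ (adjusted p = 0.189). Its log2 fold change of 0.24 turned to -0.04 under scaling to non-acinar FPKM. The part of glucocorticoids in the fall of Mt1 and Mt2 was not tested.

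Within the genotypes, the genes whose deviations from the group means ran most closely with those of Mt1 were Gucd1, Pqlc1, Nupr1, Tead2 and Rbpjl, the last an acinar transcription factor. For Slc30a8 they were Acp6, Glod4, Elac2, Srsf7 and Ccdc90b. These are the 5 closest of 7655 genes for each, ranked by Pearson correlation over 8 libraries that share their scaling and their acinar content, and they describe these libraries only. Of the 10 only Pqlc1 passed the test, as higher (log2 fold change 0.58, adjusted p = 0.000577).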

How the data were processed

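The deposited tables list 1 value per gene and library, in FPKM as inferred from the values of the authors' files, since neither labels nor headers name the unit: the values have 2 decimals and their sums differ between libraries. The submitters' processing notes name Trimmomatic 0.36, DESeq2 1.20.0, mm10 and GRCm38 with no role; the aligner is not given in the sources used here. Because FPKM is relative to the library total, more insulin or acinar RNA lowers the values of other genes. Of 20715 listed genes 3314 had no value in any library.

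The filter kept genes with 1 FPKM in 4 libraries. Their log2(FPKM + 1) values entered limma 3.58.1 (R 4.3.3; a robust eBayes fit with a mean-variance trend), two-sided, all 8 libraries in the fit, with Benjamini-Hochberg adjustment over 11747 genes. Fold changes on this scale understate those of low genes; ratios are of mean FPKM. The procedure was tested on simulated data. Ratios within a library were compared by exact permutation over 70 assignments. Correlations between libraries were 0.978 to 0.993 within and 0.955 to 0.965 between groups, and no 2 libraries shared more than 0.766% of their values. Motifs were searched in RefSeq promoter windows of GRCm38.p6, and positions are from GENCODE on GRCm38.

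The members, the gene lists and the rule for named genes (all members, called genes of the lists, otherwise up to 4 of the most abundant, the neighbours of Mt1 and Mt2, and the 5 genes closest to Mt1 and to Slc30a8) were chosen with earlier results of these data known. Marker lists covered beta, alpha, delta, PP, acinar, duct, endothelial, stromal and macrophage cells. Alternatives were 4 other scalings, a pseudocount of 0.1, 2 other filters, a simpler variance model, the acinar level as covariate, a replicate block and fits without single libraries.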

Additional observations from a re-analysis of the deposited data

Results flagged for a closer look

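A library far from the other 3 of its group was found for 5 of 22 zinc transport and storage genes, in 44 groups of 4 libraries, where chance gives about 1 in 20. Mt1 in ob/ob 1 was at 217.95 FPKM, with the other ob/ob libraries from 116.65 to 126.13. The remaining 4 all concerned ob/+ 4, the library with the largest acinar share, and all were low. Mtf1 was at 2.72 FPKM there, with the other ob/+ libraries from 4.57 to 4.82. Slc39a14 was at 3.74 FPKM, with the others from 5.35 to 5.63. Slc30a9 was at 16.64 FPKM, with the others from 23.03 to 23.78. Slc39a1 was at 16.04 FPKM, with the others from 16.57 to 16.64.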

How the results depend on the processing

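Of 190 values of the 10 zinc genes under the alternatives, 169 kept their direction and their side of the threshold, 17 passed it where the deposited scaling and all libraries did not, and 4 turned sign. When scaling skipped the 10 most abundant genes Mtf1 turned to 0.00029 and Slc39a14 to 0.0246. Scaled to non-acinar FPKM, Slc30a5 turned to -0.10 and Slc30a7 to -0.0781. The number of the 10 genes that passed was 4, and it was 8 with median centring, 8 when centred on the upper quartile and 7 when scaled to non-acinar FPKM. It was 4 to 5 on leaving out any 1 library. Over 30 zinc genes the count was 8, against 13 under non-acinar scaling (2 higher, 11 lower) and 7 to 11 on leaving out 1 library. Across all genes 2208 passed. The count was 3429 with median centring (1823 higher, 1606 lower), 3465 with upper-quartile scaling (1640 higher, 1825 lower), 7414 under non-acinar scaling (492 higher, 6922 lower) and 4000 without both ob/+ 4 and ob/ob 1. It ran from 1434 without ob/+ 1 to 4832 without ob/+ 4. When scaling skipped the 10 most abundant genes 1272 were higher and 629 lower, and with the acinar covariate 743 were higher and 2563 lower. Scaling shifts the median of all genes, as given above; beyond that the cause was not tested. The replicate numbers were not taken to pair the libraries, since the correlation of deviations between same-numbered libraries was not over 0.1 for every pair (-0.22, 0.21, 0.17 and 0.12 for replicates 1 to 4). With the replicate block 5 of the 10 genes passed and 2674 genes in all. The log2 difference of Slc30a8 to insulin was -1.09 with the replicate block, where the paired exact test gave p = 0.125, the smallest that 4 pairs allow. Absolute depth is unknown, which limits what can be said of genes near 1 FPKM such as Slc30a1 and Mtf1.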

Other observations

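Duct, stromal and endothelial markers, which belong to other cells of the islet preparation, were measured beside the zinc genes. Of all tested genes 8.21% rose and 10.6% fell. Of 7 tested stromal markers 3 fell (Col1a1, Col1a2 and Col3a1) and 1, Rgs5, rose. Of 5 tested duct markers 2 rose, Krt7 and Spp1, and of 7 endothelial and 7 macrophage markers tested none passed. Of 3 tested delta cell markers 3 fell, and of 2 PP cell markers 2 fell. The levels of the zinc genes in each of these cell types were not measured in bulk islets.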
